A study of Mus musculus with 12 samples.

Results

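Basophils express the genes of the lysosome and of the vacuolar ATPase, and this account follows 41 of them through basophil maturation under either of 2 cytokines. The genes were taken by symbol from a fixed list, with the condition of a mean of at least 1 CPM (counts scaled to a common library size, the unit of all levels here) over 12 libraries. All 41 listed symbols met it, out of 31301 genes in the table, and all 41 were among the 10861 genes tested. They comprise 10 proteases, 5 glycosidases, 7 genes of lipid breakdown and transport, 3 lysosomal membrane proteins, 12 subunits or accessory proteins of the vacuolar ATPase, and 4 others, namely progranulin, a calcium channel and a pair of transcription factors.

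C57BL/6J wild-type bone marrow was kept for 7 days with IL-3 at 0.3 ng/mL or with thymic stromal lymphopoietin (TSLP) at 1 µg/mL, the dose in the treatment protocol, while another label gives TSLP in a different unit. The resulting basophils (BMBAs) were sorted by their high-affinity IgE receptor and by CD49b into FcεRIαhi CD49blo cells, here immature, and FcεRIαlo CD49bhi cells, here mature. Each of the 4 groups, named by cytokine and stage (TSLP mature, for example), had 3 libraries, and the study describes the libraries of a group as separate cultures. All 4 groups share the wild-type genotype and the culture system, which stands in for basophils of living tissue, and none was cultured without a cytokine. The comparisons ask how the transcriptome changes from immature to mature cells in each cytokine, and how it differs between cytokines at a matched stage.

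The lysosome is the acidic compartment in which cells take apart proteins, glycans and lipids. Its acidity is set by the vacuolar ATPase (V-ATPase), a rotary pump whose V1 sector hydrolyses ATP in the cytosol and whose V0 sector carries protons through the membrane. The transcription factors TFEB and TFE3 bind a short palindromic element, called CLEAR, near the start of many lysosomal genes, and are held back when the kinase mTORC1 is active at the lysosomal surface. Basophils store granule contents in secretory organelles related to lysosomes.

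Library totals ran from 1720065 to 3685285 counts, and ribosomal RNA took 14.7% to 40.1% of them. Genes listed as markers of other cells had counts. The summed level of 20 macrophage and monocyte markers ran from 249.2 to 518 CPM in immature and 747 to 1310 CPM in mature libraries of IL-3 cultures, and from 318 to 378 CPM and 726 to 1650 CPM in those of TSLP cultures, with 19 of the 20 markers counted in each group and Marco at 0 in all. In each group other than TSLP immature the highest sum was that of library 1. A few genes made up much of these sums. In IL-3 mature 3, with the sum of 747 CPM, Ccr2 was at 318 and Lyz2 at 224 CPM, while C1qa was at 0.449 and Mertk at 0 CPM. The neutrophil markers summed to 1292 CPM in that library, with Cxcr2 at 944 CPM. Whether the sorted basophils express such genes themselves was not tested. The library TSLP mature 1 stood apart, with the macrophage sum of 1650 CPM against 749 and 726 in the other 2 of its group, a neutrophil marker sum of 1480 against 700.0 and 682 CPM, a B lineage sum of 185 CPM, and 17.3% ribosomal RNA against 31.5% and 34.7%. The 8 basophil markers, all detected in every group, summed to between 26400 and 40600 CPM in immature and between 7780 and 11800 CPM in mature libraries, and the mast cell markers to at most 8.86 CPM in any library. Of the basophil markers, Mcpt8 and Prss34 had the highest levels in immature libraries and were lower in every mature library of the same cytokine. Cd200r3, Gata2, Hdc and Itga2, the gene of CD49b, were instead higher in every mature library. Fcer1a was lower in IL-3 mature libraries and overlapped in TSLP cultures, and Il3ra overlapped in both.

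Nearly all members called with maturation were higher in mature cells. In IL-3 cultures 18 members rose in mature cells and 1 fell (edgeR quasi-likelihood F test, adjusted p under 0.05), where 46.2% of all genes tested were called, 24.1% higher and 22.1% lower. The 19 calls were 46.3% of the members, at the background share, and 18 of them were higher. The median log2 fold change of the members was 0.57, beside 0.06 over all genes tested. In TSLP cultures 23 members rose and 0 fell, where 25.2% of all genes were called, 12.9% higher and 12.2% lower. The median of the members was 0.66 on the log2 scale, beside 0.03 over all genes. Of the members, 14 rose in both cultures, 4 rose in IL-3 cultures and had no call in TSLP cultures, 9 rose in TSLP cultures and had no call in IL-3 cultures, and 13 were called in neither, while Gusb fell in IL-3 cultures. By role, 3 of 10 proteases rose in IL-3 and 8 of 10 in TSLP cultures, 3 and 2 of 5 glycosidases, and 4 and 4 of 7 lipid genes.

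Without TSLP mature 1, the TSLP count was 15, and 8 genes lost their call, namely Ctsa, Ctsc, Ctsl, Lipa, Smpd1, Atp6v0b, Atp6v0d1 and Atp6v1e1. It was 13 without TSLP immature 1 and 12 without TSLP immature 2. In these fits, in the order given, 31.4%, 16% and 16.6% of all genes were called. In IL-3 cultures the 3 mature libraries lay entirely above the 3 immature ones for 23 members and entirely below for 2, where 57.8% of all genes did not overlap (30% higher, 27.8% lower). In TSLP cultures the numbers were 28 above and 1 below, against 38.3% of all genes (20.4% higher, 17.9% lower). In bulk RNA, fewer cells of a type and less RNA per cell cannot be told apart, and this holds for each of these comparisons.

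**Figure D1:**
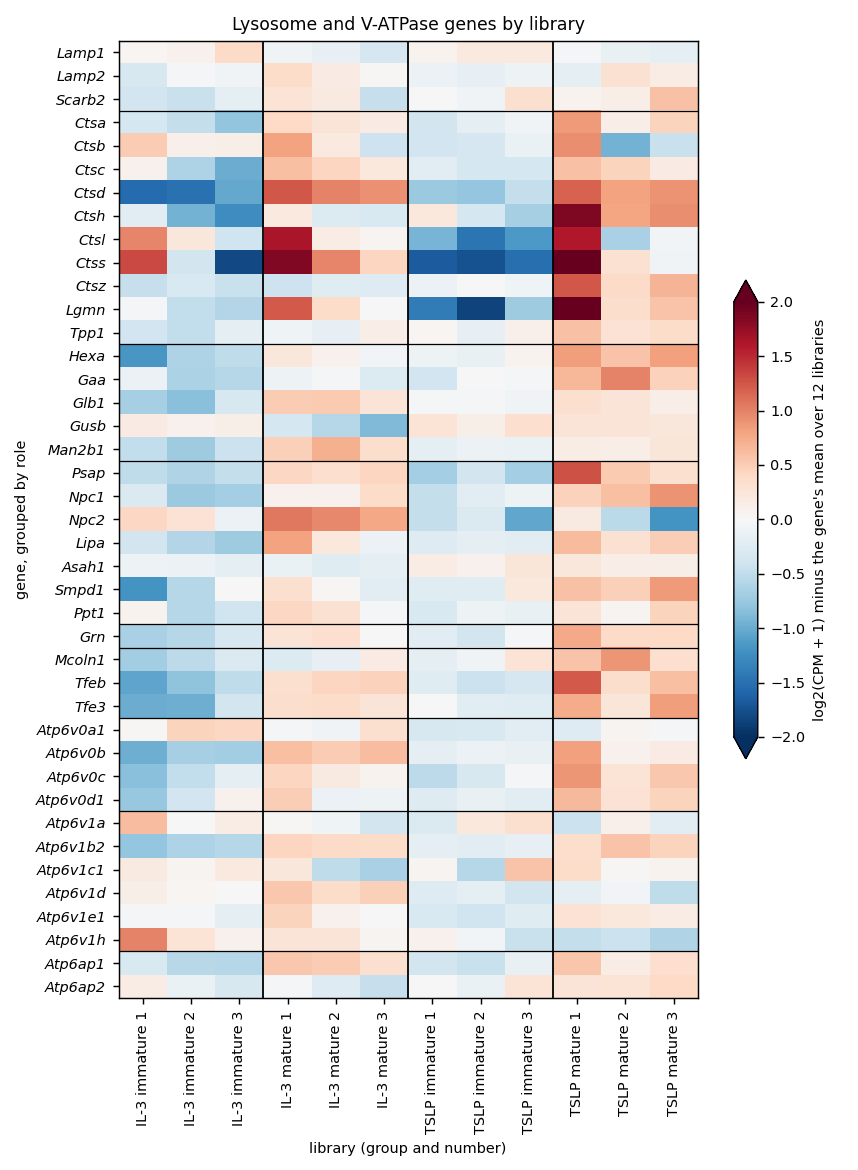
Levels of the 41 lysosome and V-ATPase genes (rows, grouped by role) in the 12 libraries (columns, by group and number), as log2(CPM + 1) minus the mean of the gene over the 12 libraries, with red above and blue below that mean. Ctsd is blue in all 6 immature and red in all 6 mature libraries, while Ctss and Lgmn are darkest in TSLP mature 1.

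Per kilobase of the longest coding transcript, Ctsd stood highest of the members in IL-3 mature cells, at 1125 ± 137 CPM per kb (SD, n = 3), followed by Npc2 at 456 ± 43.0, Man2b1 at 290 ± 37.2 and Atp6v0b at 267 ± 10.1 CPM per kb. The spreads of Man2b1 and Atp6v0b overlapped, so their order is not resolved. By CPM alone Psap, at 435 ± 15.7, and Atp6ap1, at 380 ± 31.0, stood above Atp6v0b, at 267 ± 10.1 CPM. Whether counts scale with transcript length in these libraries was not tested. The lowest levels were those of Scarb2, a receptor that carries glucocerebrosidase to the lysosome, at 1.44 ± 0.421, Lgmn at 3.37 ± 1.74 and Ctsl at 4.28 ± 2.97 CPM per kb, and these 3 spreads overlapped too. The place of Ctsl rests on the length used, a longest coding transcript of 6.17 kb. By CPM alone it was at 26.4 ± 18.3 there, beside 9.88 ± 2.19 for Ctsh and 13.1 ± 2.29 CPM for Mcoln1. In IL-3 immature cells Npc2, at 277 ± 51.5, and Ctsd, at 214 ± 43.9 CPM per kb, held the top places with overlapping spreads. By CPM alone Npc2, at 915 ± 170, was followed there by Man2b1, at 530 ± 51.6, and Ctsd, at 456 ± 93.4 CPM. The spreads of Man2b1 and Ctsd overlapped.

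Both transcription factors rose with maturation in both cultures. Tfeb was at 8.21, 9.96 and 12.5 CPM in immature and at 23.0, 25.0 and 25.6 CPM in mature libraries of IL-3 cultures. In TSLP cultures it was at 15.3, 13.2 and 14.2 CPM in immature and at 43.8, 23.4 and 28.2 CPM in mature libraries. The groups did not overlap in either culture, and TSLP mature 1 was the highest library. The log2 fold change was 1.24 ± 0.26 (SE) with an adjusted p of 0.000862 in IL-3 and 1.16 ± 0.24 with 0.00199 in TSLP cultures (edgeR), the latter 0.75 with an adjusted p of 0.0107 without TSLP mature 1.

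Tfe3, the close relative of Tfeb on the X chromosome, was at 15.5, 15.6 and 24.4 CPM in immature and at 40.8, 41.4 and 38.2 CPM in mature libraries of IL-3 cultures, and at 31.7, 27.2 and 26.8 CPM in immature and 54.0, 37.9 and 57.6 CPM in mature libraries of TSLP cultures. Mature libraries lay above immature ones in both cultures. Its log2 fold change was 1.11 ± 0.22 (adjusted p = 0.00068, edgeR) in IL-3 and 0.80 ± 0.21 (adjusted p = 0.0103) in TSLP cultures, and the second call was lost in the fits without TSLP immature 2, without TSLP immature 3 or without TSLP mature 3. Mcoln1 encodes the lysosomal calcium channel mucolipin-1. It was at 8.21, 9.39 and 11.2 CPM in immature and 11.3, 12.3 and 15.7 CPM in mature libraries of IL-3 cultures, and at 11.98, 13.2 and 17.0 CPM in immature and 21.2, 26.6 and 17.8 CPM in mature libraries of TSLP cultures. These differences with maturation, 0.43 ± 0.26 and 0.64 ± 0.23 on the log2 scale, had no call in the fit of all libraries (adjusted p = 0.183 and 0.0506, edgeR), although the libraries did not overlap in either culture, and the TSLP difference passed without TSLP mature 3.

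The 3 membrane proteins had no call in either maturation comparison. Lamp1, a common marker of the lysosomal membrane, was at 182, 187 and 231 CPM in immature and at 168, 159 and 139.7 CPM in mature libraries of IL-3 cultures. In TSLP cultures it was at 185, 203 and 203 CPM in immature and at 173, 160.2 and 155 CPM in mature libraries. The mature libraries lay below the immature ones in both cultures, opposite to most of the members. The differences were -0.37 ± 0.16 (adjusted p = 0.0745, edgeR) and -0.28 ± 0.16 (adjusted p = 0.231) on the log2 scale, and the first passed the threshold in 6 of 19 other fits, namely those without IL-3 immature 1, without TSLP mature 1 (-0.41, adjusted p = 0.0242) or without library 1 of every group (-0.58, adjusted p = 0.0133), with the size factors of DESeq2, with its Wald test, and with a filter of 10 CPM in 3 libraries. Exons of Grtp1 overlap Lamp1 on the opposite strand, and whether reads were counted by strand is not given in the sources used here.

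Lamp2, the partner of Lamp1 that also serves chaperone-mediated autophagy, was at 112 to 136 CPM in immature and at 142 to 179.7 CPM in mature libraries of IL-3 cultures, 0.33 ± 0.17 higher on the log2 scale (adjusted p = 0.131, edgeR). In TSLP cultures its groups overlapped, with 124 to 129.5 CPM in immature and 122 to 172 CPM in mature libraries and a log2 difference of 0.24 ± 0.17 (adjusted p = 0.347). Scarb2 gave 0.45 ± 0.33 and 0.21 ± 0.30 on the same scale, without a call in either culture.

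Ctsd encodes cathepsin D, the main aspartic protease of lysosomes. It was at 395, 408 and 563 CPM in immature and at 2723, 2285 and 2171 CPM in mature libraries of IL-3 cultures. In TSLP cultures it was at 687, 674 and 828 CPM in immature and at 2598, 2018 and 2149 CPM in mature libraries. Every mature library was above every immature one, and the 2 mature groups overlapped while the TSLP immature libraries lay above the IL-3 immature ones. The log2 fold change was 2.39 ± 0.21 (adjusted p = 1.27e-07, edgeR) in IL-3 and 1.63 ± 0.20 (adjusted p = 1.9e-05) in TSLP cultures, and 1.42 (adjusted p = 1.51e-05) in the latter without TSLP mature 1. Ctsd shares 32.4% of its 50-base stretches with Gm49369, a gene annotated on the same strand, and reads from these stretches cannot be assigned to either.

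Ctsa (cathepsin A, which also protects beta-galactosidase and neuraminidase) and Ctsc (cathepsin C, which activates granule serine proteases) rose in both cultures. For Ctsa the log2 fold change was 0.81 ± 0.20 (adjusted p = 0.00367, edgeR) in IL-3 and 0.72 ± 0.20 (0.0146) in TSLP cultures. For Ctsc it was 0.86 ± 0.23 (adjusted p = 0.00634) and 0.71 ± 0.23 (0.0327). Both lost the TSLP call in the fit without TSLP mature 1, with 0.41 (adjusted p = 0.0778) for Ctsa and 0.52 (adjusted p = 0.1) for Ctsc, and each also lost it without TSLP immature 1 or TSLP immature 2. Ctsc lost it in 8 of the 12 fits without 1 library, and lost the IL-3 call without IL-3 immature 2 or IL-3 immature 3. Ctsb, the abundant cysteine cathepsin B, and Tpp1, a tripeptidyl peptidase, had no call in either culture. Their log2 differences were 0.03 and 0.36 for Ctsb and 0.32 and 0.43 for Tpp1.

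**Figure D2:**
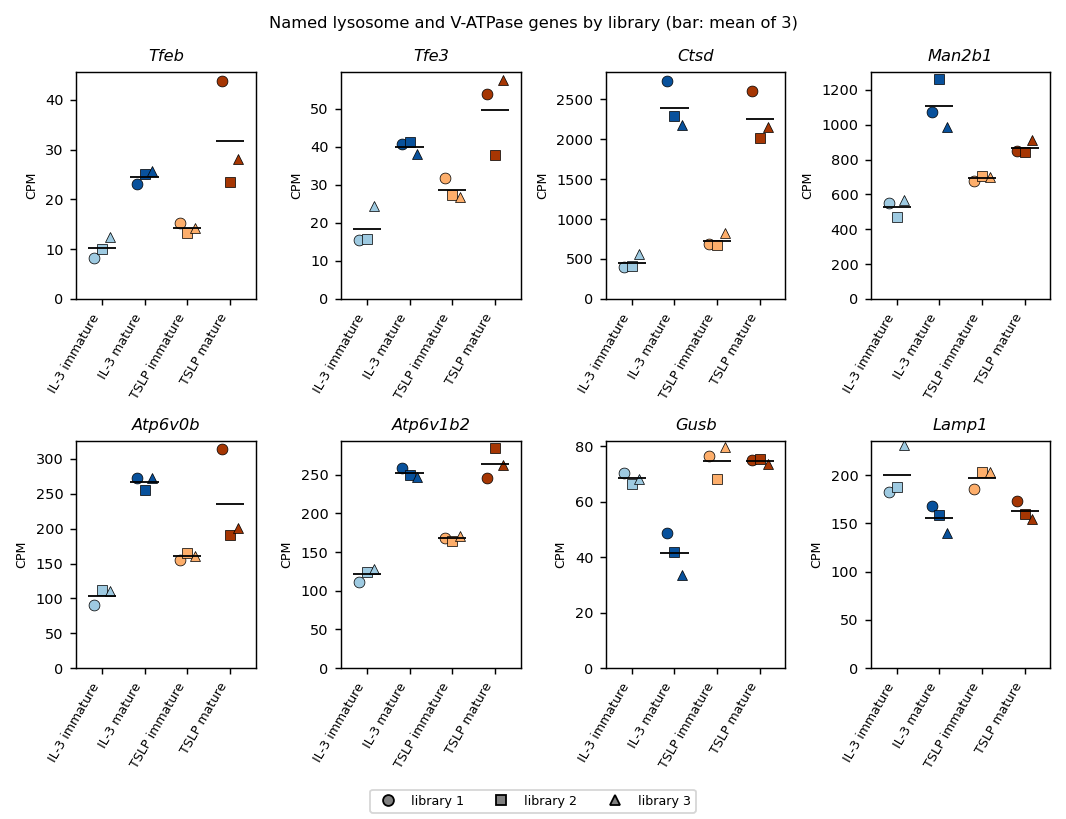
CPM of 8 named genes in each library (points, with the marker shape giving the library number) by group, on linear axes from 0, with the mean of 3 libraries as a bar. Tfeb, Tfe3, Ctsd, Man2b1, Atp6v0b and Atp6v1b2 are higher in every mature than in every immature library of the same cytokine, Gusb is lower in the IL-3 mature libraries, at 33.7 to 48.9 CPM, than in all others, and Lamp1 is lower in mature libraries of both cultures.

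The largest fold changes in TSLP cultures were those of 3 cysteine proteases that macrophages also express. Lgmn encodes legumain, an asparaginyl endopeptidase. It was at 0.898, 0.389 and 2.03 CPM in TSLP immature libraries, which held 10 counts in all, and at 28.2, 5.37 and 6.43 CPM in TSLP mature libraries. Library TSLP mature 1 was far above the other 2, but these also lay above all 3 immature ones. The log2 fold change was 3.53 ± 0.71 (adjusted p = 0.00177, edgeR) and, without TSLP mature 1, 2.25 (adjusted p = 0.00595). In IL-3 cultures it was at 3.86, 2.56 and 2.31 CPM in immature and at 10.6, 5.44 and 4.04 CPM in mature libraries, a log2 difference of 1.26 ± 0.67 (adjusted p = 0.138), or 1.22 (adjusted p = 0.0316) without TSLP mature 1.

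Ctss encodes cathepsin S, which processes invariant chain in antigen-presenting cells. It was at 30.8, 29.2 and 34.2 CPM in immature and at 482, 122.9 and 94.7 CPM in mature libraries of TSLP cultures. In IL-3 cultures it was at 249.8, 76.8 and 27.7 CPM in immature and at 363, 198 and 134 CPM in mature libraries. The TSLP groups did not overlap, the IL-3 groups did, and library 1 was the highest of each group other than TSLP immature. The log2 fold change in TSLP cultures was 2.89 ± 0.69 (adjusted p = 0.00575, edgeR), or 1.7 (adjusted p = 0.0309) without TSLP mature 1. In IL-3 cultures it was 0.99 ± 0.64 (adjusted p = 0.217), passed without IL-3 immature 1, and was 1.56 (adjusted p = 0.00367) without library 1 of each group.

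Ctsl encodes cathepsin L. It was at 7.19, 4.67 and 6.10 CPM in immature and at 46.7, 9.04 and 14.1 CPM in mature libraries of TSLP cultures. Its log2 fold change in TSLP cultures of 1.95 ± 0.60 (adjusted p = 0.0262, edgeR) was 0.83 (adjusted p = 0.256) without TSLP mature 1, and the call was also lost without any 1 of the 3 TSLP immature libraries. In IL-3 cultures the groups overlapped, at 30.0, 17.4 and 10.9 CPM in immature and 47.5, 16.3 and 15.3 CPM in mature libraries. Ctsh and Ctsz, the cathepsins H and Z, rose in TSLP cultures by 1.59 ± 0.34 (adjusted p = 0.00303) and 0.89 ± 0.20 (adjusted p = 0.00388) on the log2 scale, and by 1.05 (0.0162) and 0.52 (0.0198) without TSLP mature 1, with no call in IL-3 cultures.

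TSLP mature 1 was the highest library of its group for 10 of 10 proteases and for 25 of all 41 members (61%), where it was the highest for 41.3% of all genes tested. Its ratio to the mean of the other 2 libraries, on the log2 scale, was 2.14 for Ctss, 2.08 for Lgmn, 1.93 for Ctsl and 1.61 for Ctsb, against 0.32 for Ctsd, 0.13 for Hexa and -0.15 for Atp6v1b2. Levels of macrophage markers differed among the same libraries, some but not all in the same order. C1qb, a complement subunit made by macrophages, was at 50.8, 9.04 and 10.1 CPM in TSLP mature and at 0.898 to 3.50 CPM in TSLP immature libraries. Apoe, which macrophages secrete, was at 62.8, 26.7 and 11.9 CPM in immature and 114.5, 40.99 and 17.96 CPM in mature libraries of IL-3 cultures. Adgre1, which encodes the macrophage antigen F4/80, was in contrast lowest in TSLP mature 1, at 172 CPM against 214 and 198 CPM. Of 16 macrophage markers tested, 7 rose with maturation in IL-3 and 12 in TSLP cultures, where 24.1% and 12.9% of all genes were called higher. Library 1 was the highest of its group for 7, 8, 3 and 10 of the 10 proteases and for 15, 17, 11 and 16 of the 19 detected macrophage markers in immature and mature IL-3 and then immature and mature TSLP cells. For the 31 other members the numbers were 13, 20, 3 and 15 in the same order. The share over all genes was taken for TSLP mature cells only. The part of such cells in the protease levels was not tested. Without library 1 of every group, 17 of the 19 IL-3 calls and 11 of the 23 TSLP calls among the members were kept.

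**Figure D3:**
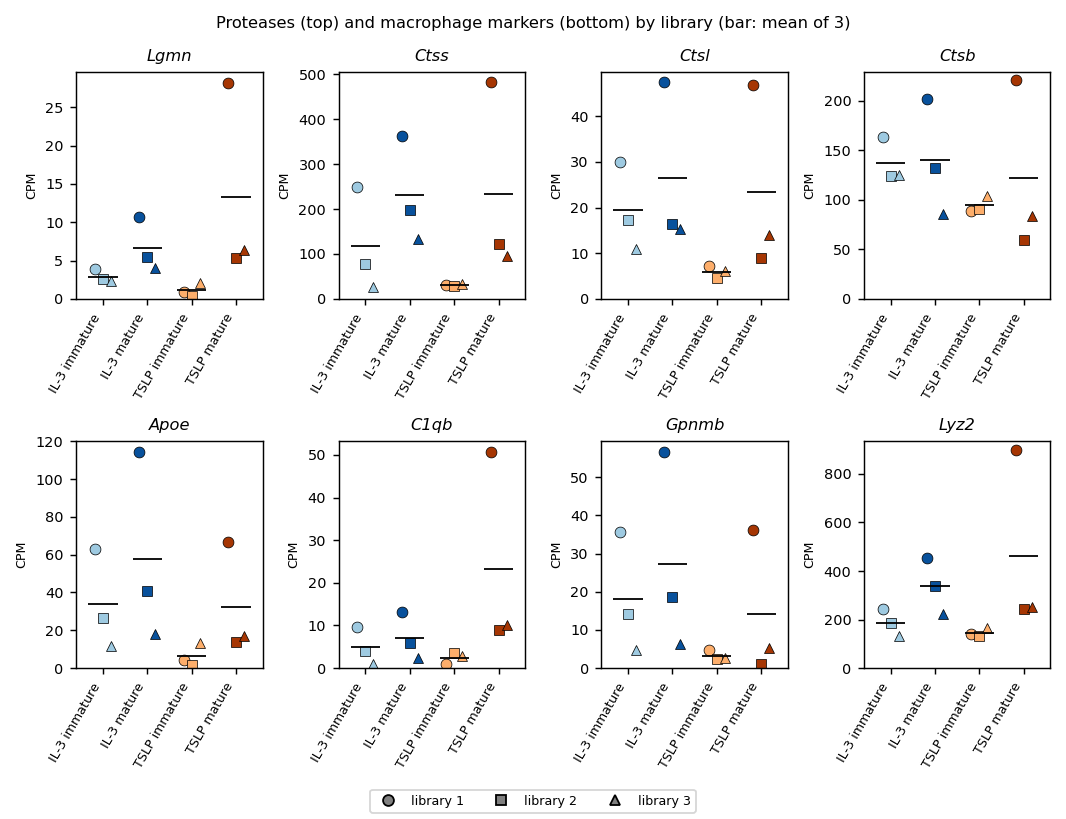
CPM of 4 proteases (top) and 4 macrophage markers (bottom) in each library by group, on linear axes from 0, with the library number as marker shape and the mean of 3 libraries as a bar. Library 1 (circle) is the highest for every gene shown in 3 of the 4 groups, all but TSLP immature, for instance 482 CPM of Ctss and 50.8 CPM of C1qb in TSLP mature 1. Not all proteases and markers left out of the figure do so. Adgre1 is lowest in TSLP mature 1, and library 1 is not the highest for Ctsz in either IL-3 group.

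Among the glycosidases, Hexa, the alpha subunit of the beta-hexosaminidase often assayed as a marker of degranulation, rose in both cultures. It was at 30.0, 44.4 and 47.5 CPM in immature and 79.8, 72.2 and 65.6 CPM in mature libraries of IL-3 cultures, and at 63.5, 61.5 and 71.9 CPM in immature and 122, 102 and 121 CPM in mature libraries of TSLP cultures. The groups did not overlap in either culture, and the log2 fold changes were 0.83 ± 0.19 (adjusted p = 0.00196, edgeR) in IL-3 and 0.81 ± 0.18 (adjusted p = 0.004) in TSLP cultures. Man2b1, the lysosomal alpha-mannosidase, rose in IL-3 cultures, from 548, 471 and 569 to 1076, 1264 and 985 CPM, by 1.07 ± 0.17 on the log2 scale (adjusted p = 7.76e-05). Glb1, the beta-galactosidase used as a senescence marker, rose there from 59.4, 52.3 and 75.2 to 134, 137 and 113 CPM, by 1.04 ± 0.17 (adjusted p = 0.000118). In TSLP cultures both had smaller differences without a call, 0.32 ± 0.17 (adjusted p = 0.177) for Man2b1 and 0.30 ± 0.17 (adjusted p = 0.216) for Glb1, although their libraries did not overlap.

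Gusb, the beta-glucuronidase, was the single member that fell. It was at 70.5, 66.6 and 68.2 CPM in immature and at 48.9, 42.1 and 33.7 CPM in mature libraries of IL-3 cultures, a log2 fold change of -0.71 ± 0.17 (adjusted p = 0.00249, edgeR). In TSLP cultures it stayed between 68.1 and 79.7 CPM in immature and between 73.8 and 75.4 CPM in mature libraries. Gaa, the acid alpha-glucosidase of glycogen breakdown, rose in TSLP cultures by 0.87 ± 0.20 on the log2 scale (adjusted p = 0.0039), from 47.3, 61.5 and 60.3 to 98.6, 124 and 85.8 CPM. Its difference in IL-3 cultures was 0.31 ± 0.20 (adjusted p = 0.217).

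In the lipid group, Psap, Npc1 and Lipa rose in both cultures. Psap encodes the precursor of the saposins, which present sphingolipids to their hydrolases. It was at 233, 219 and 237 CPM in immature and at 442, 417 and 445 CPM in mature libraries of IL-3 cultures, and at 207, 258 and 207 CPM in immature and 807, 478 and 414 CPM in mature libraries of TSLP cultures. The log2 fold change was 0.92 ± 0.22 (adjusted p = 0.00268, edgeR) and 1.34 ± 0.22 (adjusted p = 0.000327), the second 0.90 (adjusted p = 0.000482) without TSLP mature 1. Npc1, the membrane exporter of lysosomal cholesterol, rose by 0.77 ± 0.19 (adjusted p = 0.0036) and 0.93 ± 0.19 (adjusted p = 0.00163). For this gene TSLP mature 1 was the lowest of its group, and leaving it out gave 0.93 (adjusted p = 0.00075).

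Npc2, the soluble partner that hands cholesterol to Npc1, had a different pattern. It was at 1054, 966 and 725 CPM in immature and at 1633, 1528 and 1352 CPM in mature libraries of IL-3 cultures, a log2 difference of 0.72 ± 0.29 (adjusted p = 0.051, edgeR), which passed without TSLP mature 1 (0.67, adjusted p = 0.0154) or TSLP mature 3. In TSLP cultures the groups overlapped, with 565, 646 and 382 CPM in immature and 892, 541 and 343 CPM in mature libraries and a log2 difference of 0.16 ± 0.29 (adjusted p = 0.733). Lipa, the acid lipase of cholesteryl esters, rose by 0.96 ± 0.23 (adjusted p = 0.00324) and 0.74 ± 0.22 (adjusted p = 0.0231), the latter call lost in 7 of the 12 fits without 1 library, TSLP mature 1 among them. Ppt1, a palmitoyl thioesterase, had a call in IL-3 cultures (0.53 ± 0.20, adjusted p = 0.0341) although its libraries overlapped there, and Smpd1, the acid sphingomyelinase, in TSLP cultures (0.75 ± 0.25, adjusted p = 0.0402), calls lost in 12 and 10 of 19 other fits. Asah1, the acid ceramidase, was nearly level, between 43.9 and 62.0 CPM in all 12 libraries, with log2 differences of -0.05 ± 0.15 and -0.01 ± 0.15. Grn, the precursor of progranulin, which is trafficked with Psap, rose by 0.73 ± 0.18 in either culture (adjusted p = 0.00332 and 0.00627), without a call in TSLP cultures when TSLP immature 2 was left out.

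The subunits of the V-ATPase did not move as a block. In IL-3 cultures 5 of 12 rose, 2 of 4 in the V0 sector, 2 of 6 in the V1 sector and 1 of 2 accessory proteins, and in TSLP cultures 6 of 12 rose, 3 of 4 in V0, 2 of 6 in V1 and 1 of 2 accessory proteins, with 0 lower in either. These calls were 41.7% of the 12 in IL-3 cultures, below the 46.2% of all genes called (24.1% higher). In TSLP cultures they were 50%, beside 25.2% of all genes (12.9% higher). By medians, the log2 differences were 0.58 and 0.62 in V0 and -0.02 and 0.05 in V1. Those that rose in both cultures were Atp6v0b and Atp6v0c, which form the proton-carrying ring, Atp6v1b2, the B subunit of the catalytic head, and Atp6ap1, the accessory subunit Ac45.

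Atp6v0b was at 90.3, 112 and 110.1 CPM in immature and at 273, 255 and 273 CPM in mature libraries of IL-3 cultures. It was at 155, 165 and 161 CPM in immature and at 315, 190.4 and 201 CPM in mature libraries of TSLP cultures. Mature libraries were above immature ones in both cultures, by 1.36 ± 0.20 (adjusted p = 3.54e-05, edgeR) and 0.55 ± 0.19 (adjusted p = 0.0449) on the log2 scale. The second value was 0.19 (adjusted p = 0.362) without TSLP mature 1, and its call was lost in 17 of 19 other fits. Exons of Gm12841 overlap Atp6v0b on the opposite strand.

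Atp6v1b2 was at 112, 124 and 128 CPM in immature and 259, 249.6 and 247 CPM in mature libraries of IL-3 cultures, and at 168, 164 and 171 CPM in immature and 246, 285 and 262 CPM in mature libraries of TSLP cultures. It rose by 1.05 ± 0.15 (adjusted p = 3.53e-05, edgeR) and 0.66 ± 0.15 (adjusted p = 0.00449) on the log2 scale, and both calls were kept without TSLP mature 1 (1.01 and 0.61). Atp6ap1 rose by 0.93 ± 0.18 (adjusted p = 0.000411) and 0.67 ± 0.17 (adjusted p = 0.0102), and Atp6v0c by 0.72 ± 0.21 (adjusted p = 0.011) and 0.87 ± 0.21 (adjusted p = 0.00627). The TSLP calls of both were lost without TSLP immature 1, that of Atp6ap1 also without TSLP immature 2, and the IL-3 call of Atp6v0c without IL-3 immature 1, IL-3 immature 2 or IL-3 mature 1. Atp6v0c shares 10.8% of its 50-base stretches with its processed pseudogenes, of which Atp6v0c-ps2 also has counts in the table.

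In contrast to Atp6v1b2, Atp6v1a, the catalytic A subunit that pairs with it in the head, had log2 differences of -0.40 ± 0.22 (adjusted p = 0.152, edgeR) and -0.28 ± 0.22 (adjusted p = 0.391). It was at 97.6, 62.9 and 70.2 CPM in immature and 64.9, 59.9 and 49.0 CPM in mature libraries of IL-3 cultures, and at 51.8, 73.9 and 79.7 CPM in immature and 46.7, 68.4 and 54.2 CPM in mature libraries of TSLP cultures, with overlap in both cultures. Atp6v1h, the regulatory H subunit, likewise gave -0.31 ± 0.22 and -0.38 ± 0.22 without a call. Atp6v1d rose in IL-3 cultures (0.42 ± 0.16, adjusted p = 0.0436) and Atp6v1e1 (0.54 ± 0.17, adjusted p = 0.0256) and Atp6v0d1 (0.68 ± 0.22, adjusted p = 0.0325) in TSLP cultures. These 3 calls were lost in 17, 14 and 11 of 19 other fits. Atp6v1c1, Atp6v0a1 and Atp6ap2, the prorenin receptor, had no call with maturation in either culture.

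**Figure D4:**
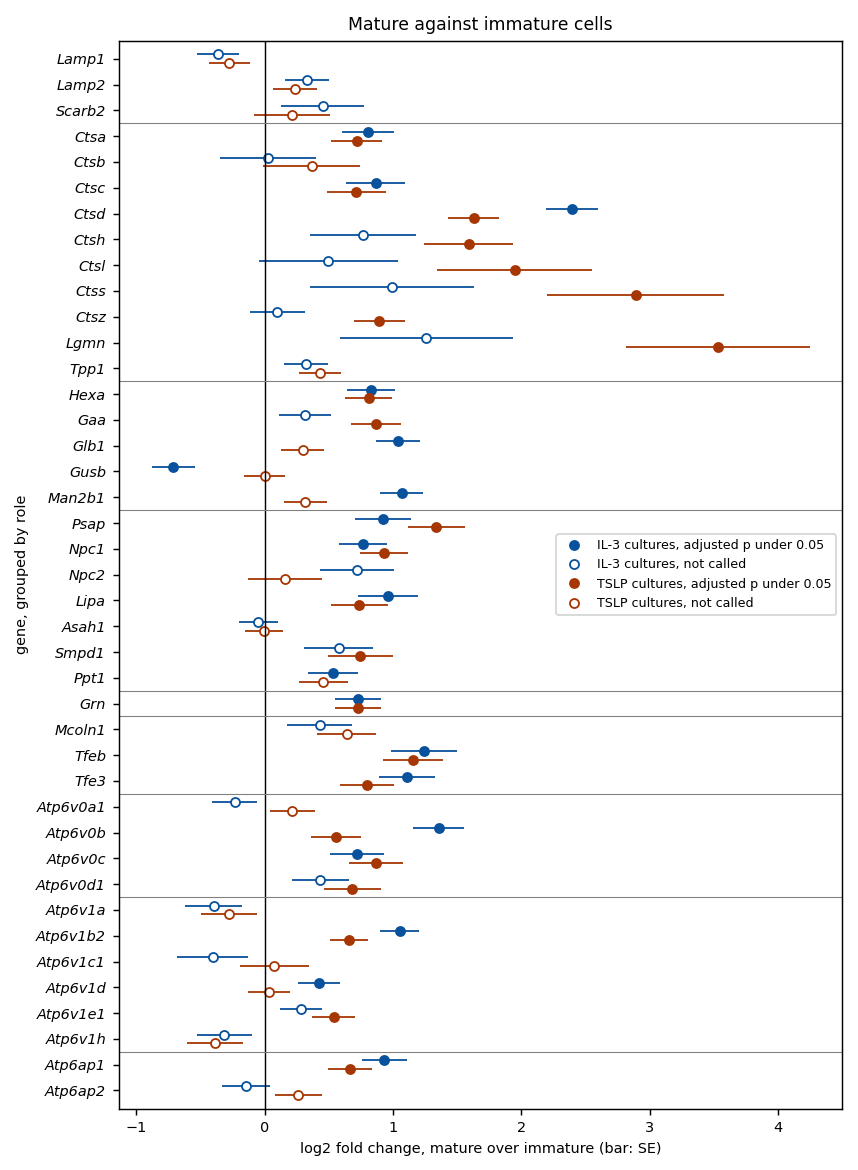
Log2 fold change of mature over immature cells (horizontal axis, with SE as bars) for each of the 41 genes (rows, grouped by role) in IL-3 cultures (blue) and TSLP cultures (brown), with filled points for an adjusted p under 0.05. The points of Ctsd lie at 2.39 and 1.63, that of Lgmn in TSLP cultures at 3.53, and the filled point left of 0 is Gusb in IL-3 cultures at -0.71.

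The promoters of the members were searched for the element that TFEB and TFE3 bind. RefSeq promoter windows of the GRCm38.p6 assembly, from 250 bases before to 50 bases after the start of transcription, were matched by symbol for 34 of the 41 members. The 7-letter core of the CLEAR element, TCACGTG on either strand, occurred in the windows of 10 of the 34 (29.4%), and in 4.29% of 27025 genes with a window. The shorter CACGTG, which every TCACGTG contains, occurred in 11 of the 34 (32.4%) and in 8.09% of all genes. Of the 10 members with TCACGTG, 4 rose in IL-3 and 6 in TSLP cultures, and of the 24 without it 12 and 14 rose. The 120 bases before the start of transcription are given for the 2 members with the motif that rose most in IL-3 cultures and for Lamp1, which holds the most copies and did not rise, 5′ to 3′ on the strand of the gene, with the motif in capitals. Ctsd is at chr7:142387828-142387947 on the minus strand, Atp6v0b at chr4:117887330-117887449 on the minus strand and Lamp1 at chr8:13159041-13159160 on the plus strand. Lamp1 was added after its values were seen.
Ctsd: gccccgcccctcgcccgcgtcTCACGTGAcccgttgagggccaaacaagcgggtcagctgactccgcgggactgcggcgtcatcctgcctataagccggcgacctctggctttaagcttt
Atp6v0b: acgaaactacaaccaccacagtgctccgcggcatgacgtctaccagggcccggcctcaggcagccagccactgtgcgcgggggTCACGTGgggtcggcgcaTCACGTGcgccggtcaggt
Lamp1: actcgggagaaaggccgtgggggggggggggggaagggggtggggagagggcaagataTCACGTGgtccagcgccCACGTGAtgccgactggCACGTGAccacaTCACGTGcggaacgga
The shown stretch of Ctsd holds 1 site, which reads as the motif on both strands, that of Atp6v0b holds 2 and that of Lamp1 holds 4, of which 2 are on the opposite strand (CACGTGA). The matches are a description of these letters in these windows, and no binding was measured. The element is known from lysosomal genes, so its higher share in a list of such genes is not a result of these data. The whole window of Ctsd holds 2 sites, the other lying further upstream of the stretch shown.

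Between cytokines, 5 members were called in immature and 10 in mature cells. In immature cells 4 members were higher in TSLP than in IL-3 cultures, and 1 was lower, where 13.3% of all genes were called (7.38% higher, 5.9% lower). The 5 calls were 12.2% of the members. Hexa was 0.68 ± 0.19 (adjusted p = 0.0257, edgeR), Ctsd 0.68 ± 0.20 (adjusted p = 0.0317), Atp6v0b 0.62 ± 0.20 (adjusted p = 0.0461) and Glb1 0.55 ± 0.17 (adjusted p = 0.0441) higher in TSLP immature cells on the log2 scale, with the libraries of the 2 groups apart for all 4. Atp6v0a1, the membrane subunit a1 of V0, was lower in TSLP immature cells, at 56.9, 58.0 and 60.7 CPM against 72.5, 97.9 and 95.9 CPM in IL-3 immature cells (-0.60 ± 0.18, adjusted p = 0.0336). None of the 5 calls held in every other fit. The count was 0 without IL-3 immature 2 or without any 1 TSLP immature library, 1 without IL-3 immature 1, 2 without IL-3 mature 2 or IL-3 mature 3, 3 without IL-3 mature 1 or TSLP mature 2, and 10 without TSLP mature 1. The share of all genes called also moved, from 5.32% without TSLP immature 3 to 20.4% without TSLP mature 1. Ribosomal RNA took 35.0% to 40.1% of TSLP immature and 14.7% to 25.0% of IL-3 immature libraries, and its part in these differences was not tested.

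Tfeb and Tfe3 were 0.46 ± 0.26 (adjusted p = 0.265, edgeR) and 0.62 ± 0.22 (adjusted p = 0.0758) higher in TSLP than in IL-3 immature cells without a call, with non-overlapping libraries in both cases, and Mcoln1 was 0.53 ± 0.25 higher (adjusted p = 0.171). Libraries of the 2 immature groups did not overlap for 14 members higher and 8 lower in TSLP, where 38% of all genes did not overlap (20.2% higher, 17.8% lower). The cysteine proteases differed in direction and none was called, with log2 differences of -1.64 ± 0.63 for Ctsl (adjusted p = 0.0953, edgeR), -1.89 ± 0.68 for Ctss (adjusted p = 0.075), whose libraries overlapped, -1.29 for Lgmn, -0.54 for Ctsb, 0.65 for Ctsh, 0.34 for Ctsz and 0.13 for Ctsc. The macrophage marker sums of these groups, 318 to 378 and 249.2 to 518 CPM, overlapped, but single markers went both ways. Adgre1 was at 45.8, 49.0 and 58.6 CPM in TSLP against 5.31, 3.13 and 3.63 CPM in IL-3 immature libraries. Mpeg1 was at 16.2, 12.4 and 13.6 CPM against 43.0, 26.2 and 17.1 CPM. Of 16 macrophage markers tested, 2 were called higher and 1 lower in TSLP, where 7.38% and 5.9% of all genes were. The part of such cells in these differences was not tested.

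In mature cells 7 members were higher in TSLP than in IL-3 cultures and 3 were lower, where 24.3% of all genes were called (12.4% higher, 11.9% lower). The 10 calls were 24.4% of the members, at the background share. Ctsh and Ctsz led. Ctsh was at 41.9, 19.2 and 21.4 CPM in TSLP mature and at 12.4, 8.71 and 8.53 CPM in IL-3 mature libraries, 1.47 ± 0.35 higher on the log2 scale (adjusted p = 0.00712, edgeR). Ctsz was at 105, 57.3 and 70.8 CPM against 32.6, 37.0 and 36.4 CPM, 1.14 ± 0.20 higher (adjusted p = 0.00147). Neither pair of groups overlapped, and without TSLP mature 1 the differences were 0.94 (adjusted p = 0.0323) and 0.77 (adjusted p = 0.00239).

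Gaa was 0.86 ± 0.20 (adjusted p = 0.00584, edgeR), Gusb 0.84 ± 0.17 (adjusted p = 0.00264) and Hexa 0.66 ± 0.18 (adjusted p = 0.0157) higher in TSLP mature cells on the log2 scale. All 3 kept the call without TSLP mature 1, at 0.81, 0.76 and 0.53, and that of Hexa was lost without IL-3 mature 2, IL-3 mature 3 or TSLP mature 3. For Gusb, 75.2, 75.4 and 73.8 CPM in TSLP mature stood against 48.9, 42.1 and 33.7 CPM in IL-3 mature libraries. Mcoln1 was higher by 0.74 ± 0.23 (adjusted p = 0.0298) and Atp6ap2 by 0.55 ± 0.19 (adjusted p = 0.0412), calls lost in 7 and 13 of 19 other fits, whereas Tfeb and Tfe3 had no call (0.38 ± 0.23 and 0.31 ± 0.21, adjusted p = 0.245 and 0.289), and the value of Tfeb was -0.01 without TSLP mature 1.

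The 3 members lower in TSLP mature cells were Npc2, Atp6v1d and Atp6v1h. Npc2 was at 892, 541 and 343 CPM in TSLP mature against 1633, 1528 and 1352 CPM in IL-3 mature libraries, a log2 difference of -1.34 ± 0.29 (adjusted p = 0.00438, edgeR). Library TSLP mature 1, the highest of its group, lay closest to the IL-3 libraries, and the difference without it was -1.85 (adjusted p = 0.000142). Atp6v1d, a stalk subunit of V1, was at 50.5, 55.1 and 40.1 CPM against 84.0, 74.4 and 80.4 CPM (-0.71 ± 0.16, adjusted p = 0.0062), and Atp6v1h at 102, 106 and 93.1 CPM against 170.2, 170.1 and 147 CPM (-0.70 ± 0.22, adjusted p = 0.0304), the latter call lost without IL-3 mature 1, IL-3 mature 2 or TSLP mature 3. No library of the 2 mature groups overlapped for these 3 genes.

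In mature cells the libraries of the 2 cytokines did not overlap for 12 members higher and 4 lower in TSLP, where 38.6% of all genes did not overlap (20.9% higher, 17.7% lower). Leaving out TSLP mature 1 added 3 lower calls to this comparison, Ctsb with -1.05 (adjusted p = 0.00852, edgeR), Ctsl with -1.29 (adjusted p = 0.0439) and Atp6v0b with -0.53 (adjusted p = 0.017), where the values of all libraries had been -0.20, -0.18 and -0.18. It also added 1 higher call, Npc1 with 0.49 (adjusted p = 0.0457), beside 0.48 in all libraries. The call of Atp6ap2 was lost (0.49, adjusted p = 0.0531). Of all genes, 26.9% were called in this fit. The count of calls was 6 without IL-3 mature 2, where 14.8% of all genes were called. Ribosomal RNA took 20.2% to 24.5% of IL-3 mature libraries and 17.3% to 34.7% of TSLP mature ones. Its part in the differences of mature cells, that of Npc2 among them, was not tested.

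**Figure D5:**
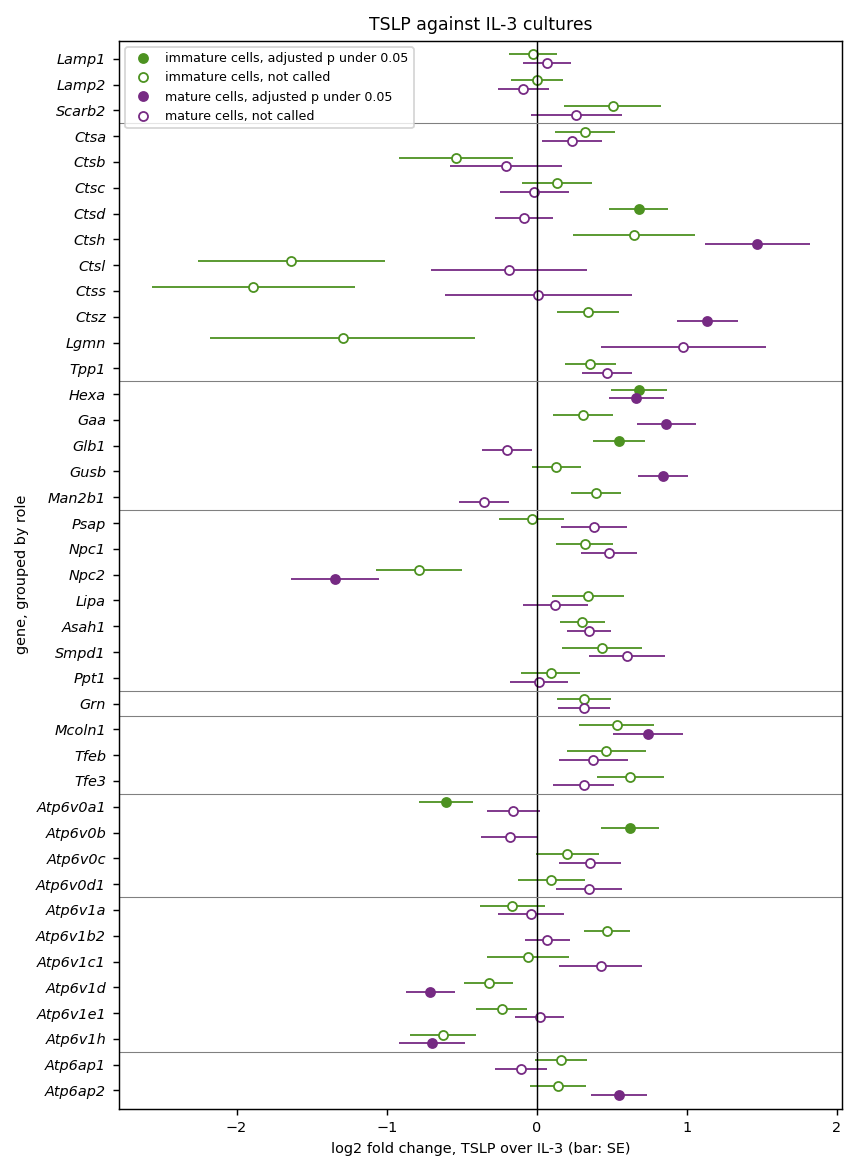
Log2 fold change of TSLP over IL-3 cultures (horizontal axis, with SE as bars) for each of the 41 genes (rows, grouped by role) in immature cells (green) and mature cells (purple), with filled points for an adjusted p under 0.05. In mature cells Ctsh lies at 1.47 and Ctsz at 1.14, and Npc2 lies at -1.34.

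The maturation effect was next compared between the cytokines as an interaction term, positive where mature minus immature was larger in TSLP than in IL-3 cultures. Of the members, 0 passed (edgeR quasi-likelihood F test), where 4.18% of all genes were called (2.04% higher, 2.14% lower). An unadjusted p under 0.05 was found for 7 of the 41 members and 2006 of the 10861 genes tested (edgeR). DESeq2 called 2 members and 5.75% of all genes. The differences between the cultures described above, such as those of Man2b1, Glb1 and Gusb, were thus not called as differences in the effect of maturation. The interaction terms were -0.75 ± 0.23 for Man2b1 (adjusted p = 0.0853), -0.74 ± 0.24 for Glb1 (adjusted p = 0.0927), 0.71 ± 0.23 for Gusb (adjusted p = 0.1), -0.80 ± 0.27 for Atp6v0b (adjusted p = 0.118) and -0.77 ± 0.28 for Ctsd (adjusted p = 0.141). Those of Lgmn and Ctss were larger but less precise, 2.27 ± 1.04 (adjusted p = 0.255) and 1.90 ± 0.92 (adjusted p = 0.283). Without TSLP mature 1, 4 members passed, all negative, namely Atp6v0b (-1.12, adjusted p = 0.00389), Ctsd (-0.93, adjusted p = 0.033), Glb1 (-0.84, adjusted p = 0.0386) and Man2b1 (-0.78, adjusted p = 0.0422), and 1 passed without IL-3 immature 3. Of all genes, 6.56% and 2.77% were called in these fits. Without TSLP mature 1, these 4 genes thus rose less from immature to mature cells in TSLP than in IL-3 cultures.

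A further 76 genes of the lysosome, the V-ATPase and mTORC1 signalling at its surface were listed apart from the members, of which 75 were in the table and 58 were tested. With maturation, 18 rose and 2 fell in IL-3 cultures, and 16 rose and 2 fell in TSLP cultures. These calls were 34.5% of the genes tested in IL-3 cultures, below the 46.2% of all genes, and 31% in TSLP cultures, beside 25.2% of all genes. Ids, the iduronate sulfatase of heparan and dermatan sulfate breakdown, rose from 0.966, 3.41 and 4.95 to 23.0, 19.9 and 20.7 CPM in IL-3 cultures (2.67 ± 0.37, adjusted p = 2.21e-05, edgeR) and by 1.86 ± 0.30 (adjusted p = 0.000262) in TSLP cultures. Sgsh, the sulfamidase, rose from 8.70, 8.82 and 7.91 to 37.6, 47.2 and 51.2 CPM in IL-3 cultures (2.41 ± 0.22, adjusted p = 2.29e-07). Arsb, arylsulfatase B, fell from 589, 576 and 488 to 66.6, 71.5 and 73.7 CPM in IL-3 cultures (-2.96 ± 0.18, adjusted p = 3.49e-09) and from 352, 348 and 312 to 104, 81.9 and 75.4 CPM in TSLP cultures (-1.95 ± 0.18, adjusted p = 8.01e-07). The libraries of the groups compared were apart in each case.

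Ctse, the aspartic protease cathepsin E, rose by 2.32 ± 0.22 (adjusted p = 3.92e-07, edgeR) in IL-3 cultures, from 11.6, 15.6 and 9.56 to 73.4, 53.7 and 59.3 CPM, as did its relative Ctsd. Aga, which cleaves asparagine-linked glycans, fell by 1.73 on the log2 scale (adjusted p = 0.000128) in IL-3 cultures. In TSLP cultures Slc11a1, a metal transporter of phagosomes, and Cd68, a lysosomal glycoprotein used as a macrophage marker, rose by 3.21 ± 0.87 (adjusted p = 0.0124) and 2.36 ± 0.46 (adjusted p = 0.00129). Slc11a1 had 5 counts over the 3 TSLP immature libraries, and its call was lost without TSLP mature 1 (2.05, adjusted p = 0.0774, edgeR), TSLP immature 1 (2.83, adjusted p = 0.0798) or TSLP immature 3 (2.88, adjusted p = 0.0524). Their levels in TSLP mature libraries were 11.3, 1.69 and 3.68 CPM for Slc11a1 and 43.0, 16.4 and 12.9 CPM for Cd68, again highest in TSLP mature 1. Sort1, a sorting receptor, fell there by 0.61 on the log2 scale (adjusted p = 0.0252). Of the other 7 V-ATPase genes tested, 1 rose in IL-3 cultures, Atp6v1g1 with 0.55, and 0 were called in TSLP cultures (edgeR, 1 at an unadjusted p under 0.05).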

How the data were processed

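Polyadenylated RNA of 12 sorted BMBA samples in 4 groups was sequenced on an Ion Proton instrument. The authors trimmed adapters with Cutadapt, aligned reads with Bowtie2 to mouse GRCm38 reference RNA, and deposited raw counts per gene symbol; the labels also name other builds, while strand use and the handling of multiply aligned reads were not given in these sources. An unnamed row equal to the column total (50% of each column) was left out.

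Counts were filtered (filterByExpr, minimum count 10, minimum total 15), scaled by TMM and fitted for all 12 libraries with 1 mean per group, with edgeR 4.0.16 (quasi-likelihood F test, R 4.3.3) and Benjamini-Hochberg adjustment over 10861 genes. The common biological coefficient of variation was 20.4%. DESeq2 1.42.0, other scalings and filters, a replicate block, and fits without single libraries were alternatives. The steps were tested on simulated data. Members and lists were chosen with earlier results of these data known. Named genes were the 4 members with the largest log2 fold change per direction and comparison among calls with non-overlapping libraries, Tfeb, Tfe3, Mcoln1, Lamp1 and Lamp2, and 3 other lysosomal genes per direction in each maturation comparison; further members were named for their role. Gene positions, lengths and shared 50-base stretches came from GENCODE vM21 (GRCm38). No library duplicated another (chi-square per degree of freedom 2.17 to 59.2 within groups). Same-numbered libraries of different groups had correlated deviations (r over 0.1) in 6 of 18 pairs, against 2 of 36 pairs of different number. The study isolated both stages from the cultures of each cytokine. Whether libraries of the same number share a culture is not stated, and these correlations cannot exclude it. The main fit took the libraries as unpaired, and the block stayed an alternative.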

Additional observations from a re-analysis of the deposited data

Results flagged for a closer look

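The maturation effect differed between the cytokines for 2 of the 58 other lysosomal genes tested, by the interaction term of the edgeR fit, which is 3.45% of them, beside 4.18% of all genes tested. For Arsb the term was 1.01 ± 0.24 on the log2 scale (adjusted p = 0.0276), since it fell by 2.96 in IL-3 and by 1.95 in TSLP cultures. In immature libraries it stood at 589, 576 and 488 CPM in IL-3 and at 352, 348 and 312 CPM in TSLP cultures, while the mature groups lay between 66.6 and 104 CPM. The term ran from 0.81 to 1.1 in the fits without 1 library, and the call was lost in 8 of those 12. For Sgsh the term was -1.43 ± 0.29 (adjusted p = 0.0101), with a rise of 2.41 in IL-3 and of 0.98 in TSLP cultures, and it was called in all 12 fits without 1 library (-1.6 to -1.31). Sgsh was at 8.70, 8.82 and 7.91 CPM in IL-3 immature and at 25.2, 30.0 and 20.3 CPM in TSLP immature libraries, whereas both mature groups lay between 37.6 and 55.3 CPM. Exons of other genes overlap Arsb and Sgsh on the opposite strand.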

How the results depend on the processing

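Counts of called members were, without 1 library each, 15 to 22 for maturation in IL-3 cultures, 12 to 22 for maturation in TSLP cultures, 0 to 10 for TSLP against IL-3 in immature cells, 6 to 13 in mature cells and 0 to 4 for the interaction. The share of all genes called moved too. It ran from 38% to 51.5% and from 16% to 31.4% for maturation in IL-3 and TSLP cultures. Between cytokines it ran from 5.32% to 20.4% in immature and from 14.8% to 26.9% in mature cells. For the interaction it ran from 2.15% to 6.56%. In immature cells the 5 calls became 3 with the size factors of DESeq2, 2 with TMM on uncalled genes and 3 with a filter of 10 CPM in 3 libraries. Of all genes, 13%, 12.5% and 15.9% were called in these fits. The interaction gave 2 calls with DESeq2 and 3 without a filter, beside 5.75% and 2.98% of all genes. Without library 1 of every group, an alternative chosen after seeing the data, the TSLP maturation count was 11, that of TSLP against IL-3 in immature cells 2 and the interaction count 1. The shares of all genes called in that fit were 24.5%, 11% and 3.17%. Of the calls on members, 15 of 19, 10 of 23, 0 of 5 and 6 of 10 held in every alternative. The cause of these changes was not tested.

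With the replicate number as a block, 10 members and 17.4% of all genes were called in immature cells. Of the 12 libraries, 7 lay closest to their own number, which the labels do not tie to a shared batch.

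Signs turned for small cytokine differences of Lamp1, Lamp2 and Tfeb. In immature cells, Lamp2 (0.0031) was -0.051 with the size factors of DESeq2, -0.025 with TMM on uncalled genes, -0.053 with DESeq2, -0.023 with no filter, -0.039 with the filter of 10 CPM, -0.15 without library 1 of all groups, and -0.091 to 0.019 in the fits without 1 library, where Lamp1 ran from -0.11 to 0.057. In mature cells, the fits without 1 library gave -0.011 to 0.51 for Tfeb, -0.064 to 0.13 for Lamp1 and -0.26 to 0.0069 for Lamp2, and without library 1 of all groups Tfeb was -0.033 and Lamp2 0.073. Depth limits Lgmn, with 10 counts over the 3 TSLP immature libraries, and Slc11a1, with 5.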

Other observations

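Among the genes that anchor mTORC1 at the lysosome, 3 of the 5 Ragulator subunits were lower in TSLP than in IL-3 mature cells, an observation picked after the values were seen, where 11.9% of all genes were called lower. The log2 differences were -1.47 ± 0.31 for Lamtor2 (adjusted p = 0.00374, edgeR), -1.37 ± 0.34 for Lamtor4 (adjusted p = 0.0103) and -1.15 ± 0.31 for Lamtor3 (adjusted p = 0.0156). Lamtor2 was at 45.9, 37.0 and 20.8 CPM in TSLP mature and at 105, 91.4 and 92.1 CPM in IL-3 mature libraries, which did not overlap. In the same order, ribosomal RNA took 17.3%, 31.5% and 34.7% of the TSLP mature libraries. It took 20.4%, 20.2% and 24.5% of the IL-3 mature ones, and its part in these differences was not tested. In immature cells the same 3 were also lower in TSLP with libraries apart, and Lamtor3 was called (-1.29 ± 0.32, adjusted p = 0.0143), while Lamtor2 (-0.88 ± 0.30, adjusted p = 0.0644) and Lamtor4 (-0.98 ± 0.34, adjusted p = 0.066) were not. In mature cells the calls among all 58 other lysosomal genes numbered 12 (20.7%, beside 24.3% of all genes), and 4 to 20 in the fits without 1 library. The share of all genes called in those fits ran from 14.8% to 26.9%. In these cells Lamtor1 (0.41, adjusted p = 0.188) and Lamtor5 (-0.60, adjusted p = 0.174) had no call. Flcn, encoding folliculin, which acts on the same complex, was higher in TSLP mature cells by 0.70 ± 0.19 (adjusted p = 0.0155) and rose with maturation by 1.20 in IL-3 and 1.01 in TSLP cultures.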
